A study of Ovis aries with 8 samples.

Results

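The tricarboxylic acid cycle dehydrogenases are the enzymes of the mitochondrial cycle that pass electrons to NAD, NADP or a quinone, together with the cytosolic forms of isocitrate and malate dehydrogenase. Of 10 gene symbols listed for them, 8 were in the count table of 11247 genes: *IDH1*, *IDH2*, *IDH3A*, *IDH3B*, *IDH3G*, *MDH1*, *MDH2* and *OGDH*. *SDHA* and *SDHB*, the catalytic flavoprotein and iron-sulphur subunits of succinate dehydrogenase, were not analysed here. All 8 genes passed the filter on low counts, as did 9779 genes of the whole table. The genes were chosen by name and function, but with earlier results of these data known.

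Polyadenylated RNA was sequenced from longissimus thoracis, a muscle along the back, of 8 castrated Dorper X Santa Inês crossbred lambs at slaughter. The labels give 4 of them as CON, the control diet, and 4 as SM20, a diet with 20% soybean molasses, a sugar-rich co-product of soy processing. They came from a trial of 20 lambs with 10 per diet, and their age was not given in the sources used here. Each library is 1 lamb, and lamb numbers only name the animals. The comparison asks how the diet bears on muscle transcripts in a trial concerned with fat deposition and lipid oxidation of meat.

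In mitochondria, acetyl groups enter the cycle as citrate, which is rearranged to isocitrate and oxidised stepwise back to oxaloacetate. Isocitrate can be oxidised by an NAD-linked enzyme, IDH3, which feeds the respiratory chain, or by NADP-linked enzymes, IDH2 in mitochondria and IDH1 in cytosol and peroxisomes, which make the NADPH used in lipid synthesis and in the reduction of glutathione and thioredoxin. In ruminant adipose tissue the cytosolic NADP-linked enzyme is known as a main source of NADPH for fatty acid synthesis from acetate. The pair of malate dehydrogenases, MDH1 in cytosol and MDH2 in mitochondria, carries reducing power across the inner membrane through the malate-aspartate shuttle.

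Total counts over all 11247 genes of the table ran from 8675527 to 11210065 per library. The 10 skeletal muscle markers in the table, of 12 listed, were abundant in every library. *ACTA1*, skeletal actin, had 33234 to 60986 CPM (TMM-scaled counts relative to library size) and *CASQ1*, the calcium store protein of skeletal muscle, 3743 to 5962 CPM. Slow-fibre markers (10 of 11 in the table) differed between lambs, with a summed level of 11221 to 26073 CPM in CON, highest in CON lamb 1, and 11665 to 16183 CPM in SM20. Of these 10 markers 9 had a negative log2 fold change in SM20, with a median of -0.57, and 0 passed the test (adjusted p under 0.05 by edgeR). Over all tested genes 49.3% had a negative value and 0.0511% passed. The summed slow-fibre levels overlapped between diets, and so did those of the other lists. Adipocyte markers stood at 30.9 to 109.4 CPM in CON and 58.8 to 89.2 CPM in SM20. In the same order, endothelial markers stood at 447.8 to 643.2 and 400.9 to 603.1 CPM. Fibroblast markers stood at 1115 to 2041 and 1172 to 2560 CPM, and leukocyte markers at 11.1 to 24.4 and 14.1 to 20.9 CPM. The fast-fibre list stood at 115462 to 157844 CPM in CON and 130850 to 156402 CPM in SM20. The erythrocyte list, with 2 of 5 markers in the table, stood at 0.581 to 1.88 CPM in CON and 0.793 to 17.0 CPM in SM20. Negative values were also frequent among skeletal muscle (8 of 10), fast-fibre (6 of 8), adipocyte (5 of 6) and endothelial markers (5 of 7). Their medians were -0.17, -0.11, -0.15 and -0.27. Fibroblast and leukocyte markers had 2 of 6 negative each, with medians of 0.093 and 0.15. In whole muscle, fewer cells or fibres of a type and less RNA per cell cannot be told apart.

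For 4 of the 8 genes all SM20 lambs lay below all CON lambs: *IDH2*, *IDH3B*, *IDH3G* and *MDH2*, all of mitochondrial enzymes. The other 4, *IDH1*, *IDH3A*, *MDH1* and *OGDH*, overlapped between diets, and of these *IDH3A* and *OGDH* also encode parts of mitochondrial enzymes. Over all tested genes, 5.67% had all SM20 lambs below all CON lambs and 6.54% had them above. The 4 non-overlapping genes had 1.44-fold to 1.66-fold lower fitted levels in SM20, but 0 of the 8 passed in edgeR's quasi-likelihood test at an adjusted p under 0.05, where 0.0511% of all tested genes passed. The same 4 had an unadjusted p under 0.05 as lower, against 8.45% of all tested genes, and 0 did as higher, against 9.84%. The same 4 passed as lower with DESeq2, against 3.07% of the genes to which DESeq2 gave an adjusted p. The median log2 fold change of the 8 genes was -0.40, and that of all tested genes was 0.0055. Of the 8 genes 7 had a negative value, against 49.3% of all tested genes.

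**Figure D1:**
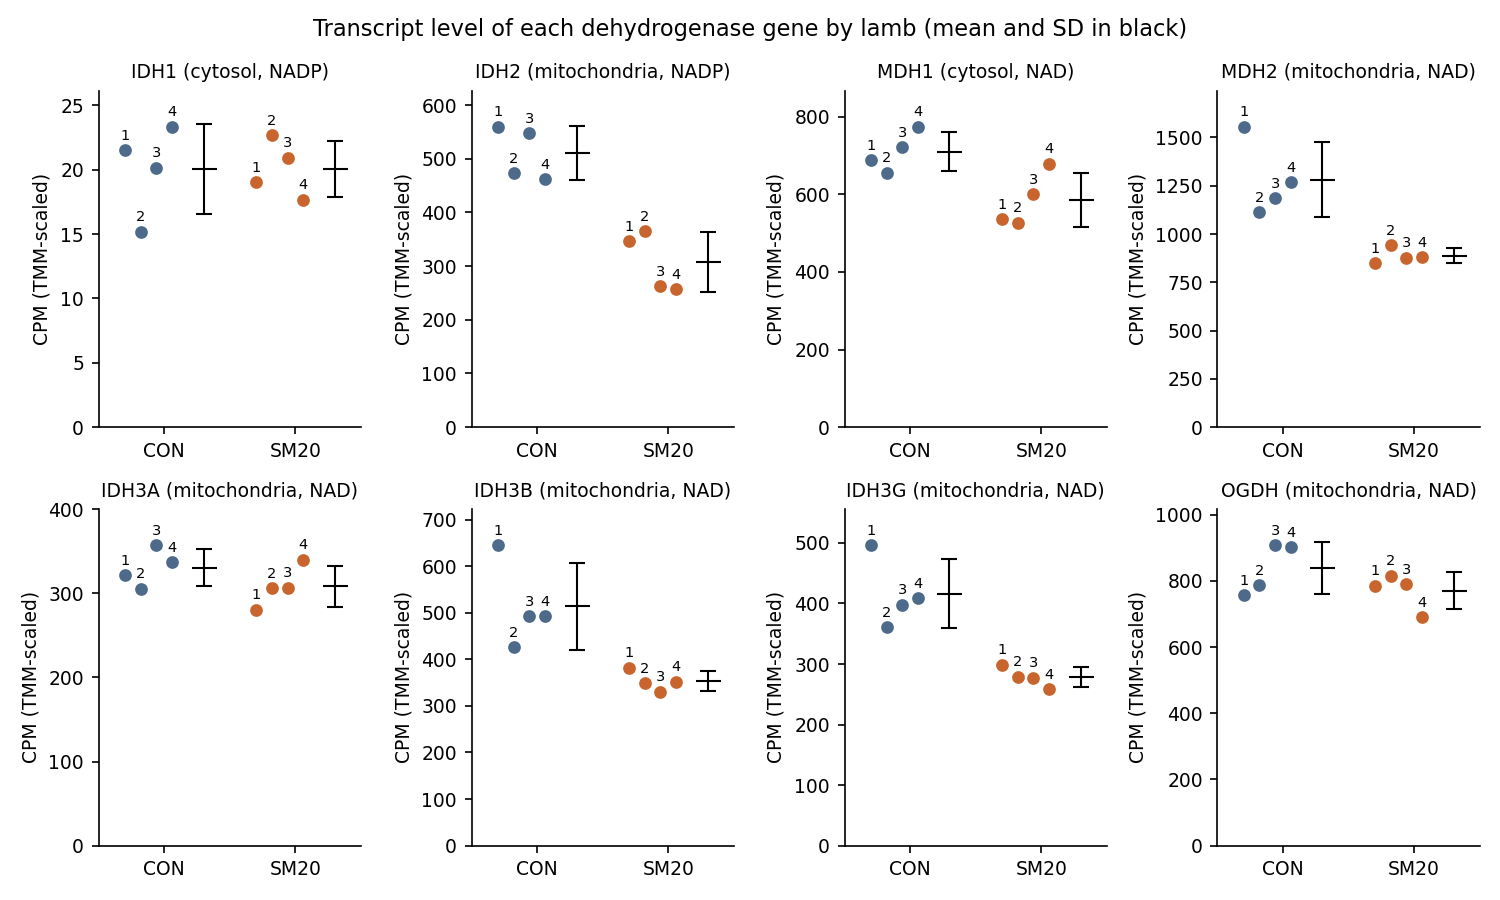
Levels in CPM (TMM-scaled, axes from 0) of the 8 dehydrogenase genes, with 1 point per lamb labelled by its lamb number and the mean and SD of 4 lambs in black. The CON and SM20 points of IDH2, IDH3B, IDH3G and MDH2 do not overlap, and those of IDH1, IDH3A, MDH1 and OGDH do.

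Among the NADP-linked forms, *IDH2* had its diets apart and *IDH1* lay at almost the same mean in both. *IDH2*, the mitochondrial enzyme, stood at 560.1, 472.7, 548.1 and 462.5 CPM in CON lambs 1 to 4, and at 346.4, 365.5, 262.1 and 257.6 CPM in SM20 lambs 1 to 4. The highest SM20 lamb was thus below the lowest CON lamb. The means were 510.9 ± 50.3 CPM in CON and 307.9 ± 56.1 CPM in SM20 (SD, n = 4 per diet), a log2 fold change of -0.73 ± 0.15 (SE) with a 95% interval of -1.06 to -0.40 and an adjusted p of 0.0871 by edgeR. *IDH2* had the lowest fold change of the 8 genes and ranked 58 of 9779 by p. DESeq2 gave it an adjusted p of 0.0013.

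*IDH1*, the cytosolic and peroxisomal enzyme, stood at 21.5, 15.2, 20.2 and 23.4 CPM in CON lambs 1 to 4, and at 19.0, 22.7, 20.9 and 17.7 CPM in SM20 lambs 1 to 4. CON lambs held both the lowest and the highest value, so the SM20 range lay inside that of CON. The means were 20.1 ± 3.49 and 20.1 ± 2.19 CPM (SD, n = 4 per diet). Its log2 fold change was 0.0029 ± 0.16 (SE; adjusted p = 0.996 by edgeR), and its sign was negative with DESeq2 and with RLE or upper-quartile scaling. The 95% interval of -0.35 to 0.36 leaves room for a change of either sign of that size. These values rest on 157 to 229 reads per library, against 2317 to 5710 for *IDH2*.

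The question of cytosolic against mitochondrial forms was put to each lamb as a log2 ratio of a pair of genes, in which library scaling cancels. The absolute value of such a ratio depends on transcript length, so only its difference between diets is read. The log2 ratio of *IDH1* to *IDH2* was -4.69, -4.94, -4.75 and -4.30 in CON lambs 1 to 4 and -4.17, -4.00, -3.63 and -3.85 in SM20 lambs 1 to 4. All SM20 lambs lay above all CON lambs. The mean was 0.76 higher in SM20 on the log2 scale, a 1.69-fold higher ratio, with exact two-sided permutation p = 0.0286, the smallest that 70 assignments of 4 lambs against 4 allow. Over the 8 ratios computed the adjusted p was 0.0571, which misses the threshold. At least 5 of the 8 ratios would have to reach the smallest p together for any to pass. Most of these ratios share a gene with another, so they are not independent of each other or of the gene levels.

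The malate dehydrogenases had lower mean levels in SM20, with the diets separate for the mitochondrial and overlapping for the cytosolic form. *MDH2*, the mitochondrial enzyme that closes the cycle, stood at 1557, 1113, 1186 and 1270 CPM in CON lambs 1 to 4, and at 850.3, 943.0, 878.3 and 881.3 CPM in SM20 lambs 1 to 4. The SM20 lambs lay close together below all CON lambs, and CON lamb 1 was the highest. The means were 1281 ± 194 and 888.2 ± 39.1 CPM (SD, n = 4 per diet), with a log2 fold change of -0.53 ± 0.13 (SE; adjusted p = 0.107 by edgeR and 0.0080 by DESeq2). Without CON lamb 1 it was -0.42.

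*MDH1*, the cytosolic enzyme of the shuttle, stood at 686.8, 655.7, 721.1 and 774.1 CPM in CON lambs 1 to 4, and at 536.3, 526.3, 599.3 and 678.7 CPM in SM20 lambs 1 to 4. SM20 lamb 4 alone reached into the CON range, above CON lamb 2. The means were 709.4 ± 50.7 and 585.1 ± 70.3 CPM (SD, n = 4 per diet). The log2 fold change was -0.28 ± 0.13 (SE), with a 95% interval of -0.56 to 0.0020 and an adjusted p of 0.276 by edgeR.

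The log2 ratio of *MDH1* to *MDH2* was -1.18, -0.76, -0.72 and -0.71 in CON lambs 1 to 4 and -0.66, -0.84, -0.55 and -0.38 in SM20 lambs 1 to 4. The diets overlapped, through SM20 lamb 2. The difference of 0.24 (exact permutation p = 0.200, adjusted p = 0.267) became 0.12 without CON lamb 1 and 0.16 without SM20 lamb 4. Leaving out SM20 lamb 2 gave 0.31 (exact permutation, adjusted p = 0.0571).

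Of the 3 genes of the NAD-linked isocitrate dehydrogenase IDH3, the diets were separate for *IDH3B* and *IDH3G* and overlapped for *IDH3A*. *IDH3A* encodes the subunit with the catalytic site, and *IDH3B* and *IDH3G* encode the beta and gamma subunits that the enzyme needs for full activity and for its control by ADP and citrate.

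*IDH3G* stood at 496.5, 361.1, 397.8 and 409.1 CPM in CON lambs 1 to 4, and at 299.2, 278.8, 277.5 and 258.8 CPM in SM20 lambs 1 to 4. All 4 SM20 lambs lay below CON lamb 2, the lowest control. The means were 416.1 ± 57.4 and 278.6 ± 16.5 CPM (SD, n = 4 per diet), a log2 fold change of -0.58 ± 0.13 (SE; adjusted p = 0.0909 by edgeR and 0.0028 by DESeq2).

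*IDH3B* stood at 645.1, 425.5, 492.0 and 492.7 CPM in CON lambs 1 to 4, and at 381.6, 348.5, 330.2 and 351.6 CPM in SM20 lambs 1 to 4. CON lamb 1 was again highest and CON lamb 2 the lowest control, still above all SM20 lambs. The means were 513.8 ± 93.0 and 353.0 ± 21.3 CPM (SD, n = 4 per diet), a log2 fold change of -0.54 ± 0.14 (SE; adjusted p = 0.113 by edgeR and 0.0163 by DESeq2).

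*IDH3A* stood at 321.3, 305.6, 357.3 and 336.6 CPM in CON lambs 1 to 4, and at 280.4, 306.3, 306.5 and 339.9 CPM in SM20 lambs 1 to 4. SM20 lamb 4 was above 3 of the 4 control lambs. The means were 330.2 ± 22.1 and 308.3 ± 24.4 CPM (SD, n = 4 per diet). The log2 fold change was -0.10 ± 0.12 (SE; adjusted p = 0.691 by edgeR) with a 95% interval of -0.35 to 0.15.

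Within lambs, the log2 ratio of *IDH3A* to *IDH3G* was -0.63, -0.24, -0.15 and -0.28 in CON lambs 1 to 4 and -0.09, 0.14, 0.14 and 0.39 in SM20 lambs 1 to 4. The ratio of *IDH3A* to *IDH3B* was -1.01, -0.48, -0.46 and -0.55 in CON and -0.44, -0.19, -0.11 and -0.05 in SM20 in the same order. All SM20 lambs lay above all CON lambs for both ratios, though SM20 lamb 1 exceeded the nearest control lamb only narrowly. The means differed by 0.47 and 0.43 on the log2 scale, each with exact permutation p = 0.0286 and an adjusted p of 0.0571, so neither passed. Without CON lamb 1 the differences were 0.37 and 0.30. *IDH3B* and *IDH3G* kept the most even ratio of the 8, with a log2 value of 0.30 ± 0.06 in CON and 0.34 ± 0.08 in SM20 (SD, n = 4 per diet; exact permutation p = 0.429, adjusted p = 0.429).

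The NAD-linked and the NADP-linked mitochondrial isocitrate dehydrogenase were compared through each IDH3 subunit over *IDH2*, and 0 of these 3 ratios passed after adjustment. For *IDH3A* over *IDH2*, the log2 ratio was -0.80, -0.63, -0.62 and -0.46 in CON lambs 1 to 4 and -0.30, -0.25, 0.23 and 0.40 in SM20 lambs 1 to 4. All SM20 lambs lay above all CON lambs, and SM20 lambs 3 and 4 were highest. The difference was 0.64 (exact permutation p = 0.0286, adjusted p = 0.0571). For *IDH3B* over *IDH2* the mean log2 ratio was -0.0032 ± 0.18 in CON and 0.21 ± 0.23 in SM20 (SD, n = 4 per diet), a difference of 0.22 with overlap between diets (exact permutation p = 0.171, adjusted p = 0.267). For *IDH3G* over *IDH2* it was -0.30 ± 0.15 and -0.13 ± 0.21, a difference of 0.17 with overlap (exact permutation p = 0.286, adjusted p = 0.327).

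**Figure D2:**
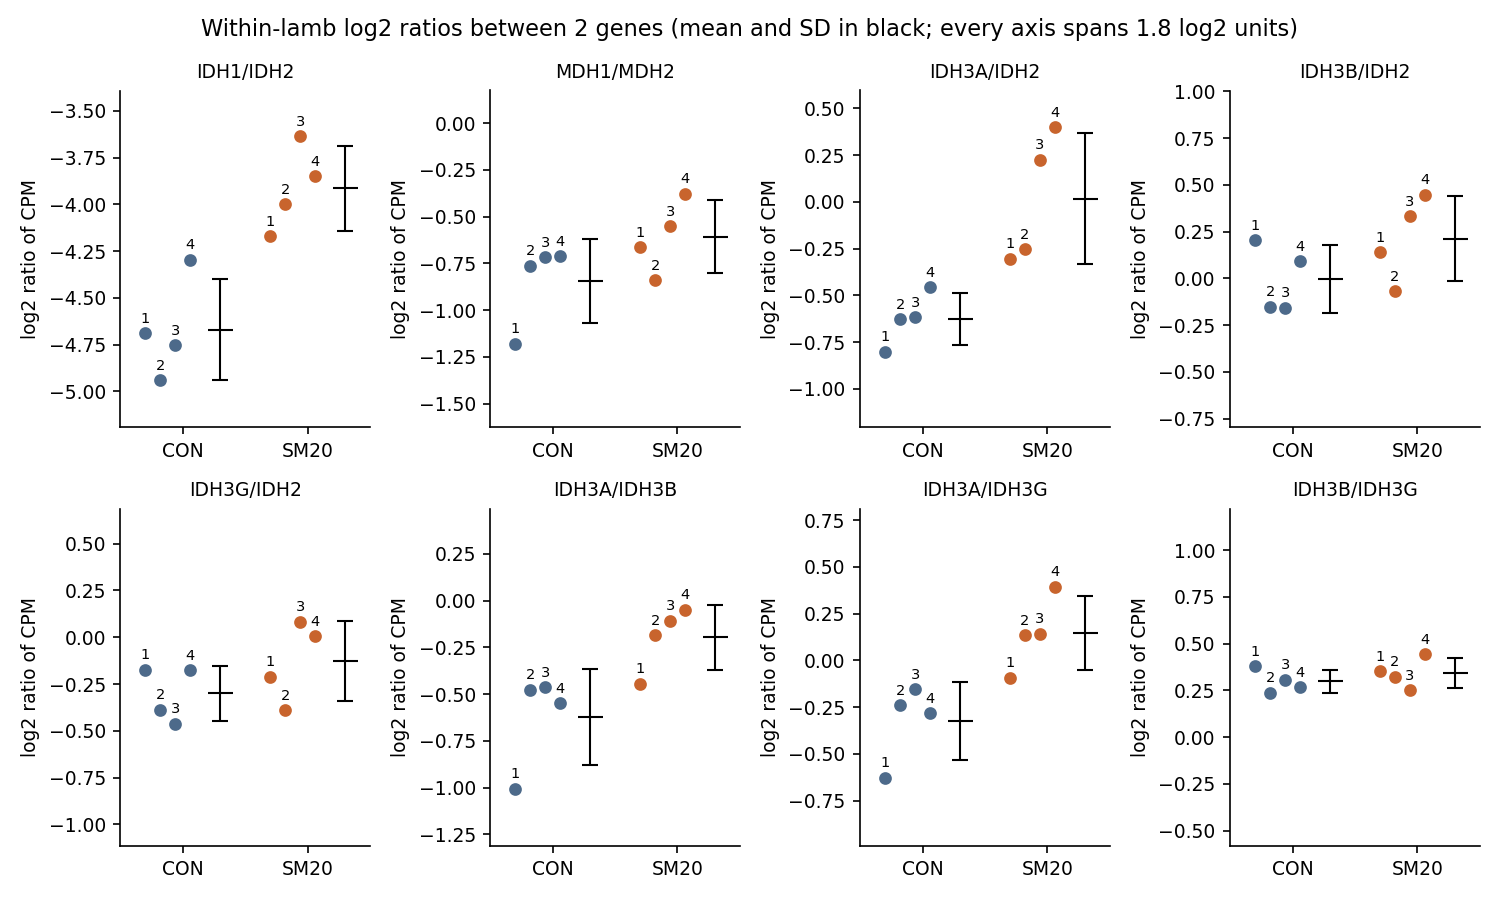
Log2 ratio of CPM between 2 genes in each lamb (1 point per lamb, labelled by its number, with the mean and SD of 4 lambs in black), on axes of equal span. IDH1/IDH2, IDH3A/IDH2, IDH3A/IDH3B and IDH3A/IDH3G lie higher in all SM20 lambs than in all CON lambs, and IDH3B/IDH3G is nearly level. Ratios that share a gene are not independent of each other.

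*OGDH* encodes the first enzyme of the 2-oxoglutarate dehydrogenase complex, which makes succinyl-CoA and NADH. It stood at 756.2, 787.6, 908.5 and 901.9 CPM in CON lambs 1 to 4, and at 786.2, 815.4, 790.5 and 690.0 CPM in SM20 lambs 1 to 4. CON lambs 1 and 2 lay within the SM20 range. The means were 838.5 ± 78.1 and 770.5 ± 55.2 CPM (SD, n = 4 per diet), with a log2 fold change of -0.12 ± 0.12 (SE; 95% interval -0.39 to 0.15, adjusted p = 0.635 by edgeR).

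Together the 8 genes took 0.446, 0.381, 0.509 and 0.482% of all counts in CON lambs 1 to 4, and 0.362, 0.363, 0.353 and 0.352% in SM20 lambs 1 to 4. Every SM20 lamb was below every CON lamb, with CON lamb 2 the nearest, and the SM20 lambs were close together. This share uses counts without TMM scaling and weighs the most counted genes, such as *MDH2*, most. It therefore restates the levels of single genes given above.

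CON lamb 1 had the highest level of *IDH2*, *IDH3B*, *IDH3G* and *MDH2*, and also of the slow-fibre markers. Without it the log2 fold changes were -0.68, -0.41, -0.48 and -0.42 for these genes in that order. With the mean log2 level of the slow-fibre markers as a covariate they were -0.68, -0.44, -0.50 and -0.46. In that fit 0 genes passed the threshold by edgeR. Of the 8 genes 5 had an unadjusted p under 0.05 as lower, against 7.44% of all tested genes in that fit. With that covariate *MDH1* went from -0.28 to -0.34, *IDH3A* from -0.10 to -0.15, *OGDH* from -0.12 to -0.19 and *IDH1* from 0.0029 to -0.052. Without CON lamb 1 these had -0.29, -0.11, -0.17 and 0.038 in that order.

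**Figure D3:**
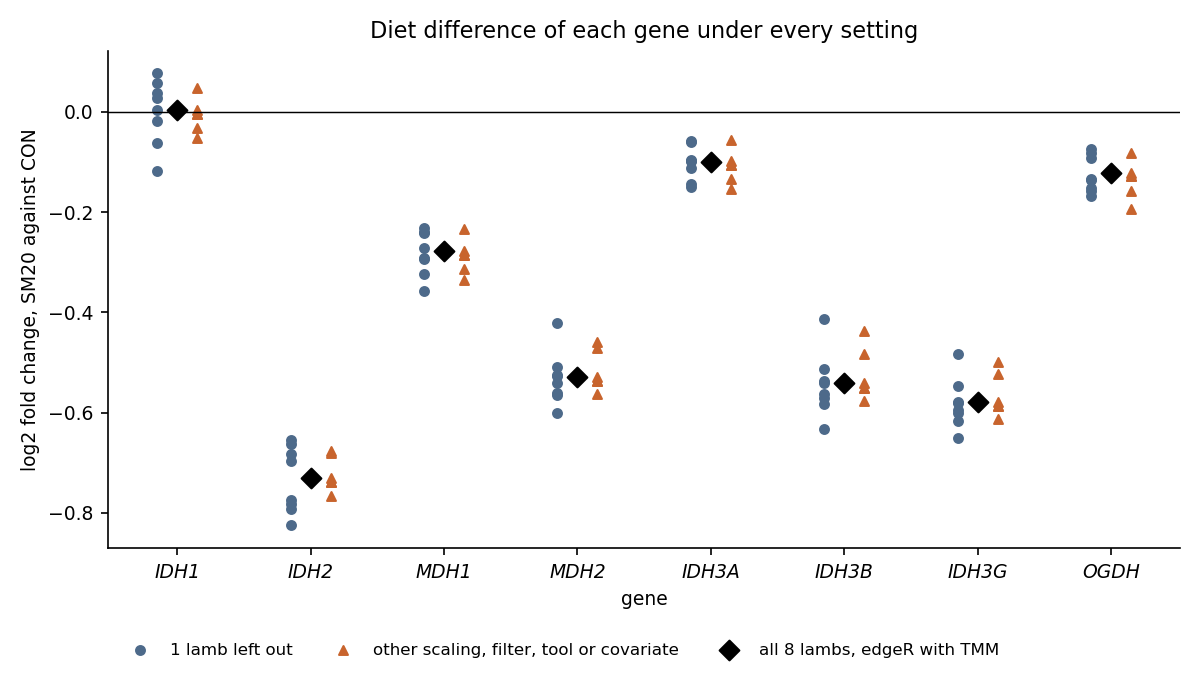
Log2 fold change of SM20 against CON for each gene with all 8 lambs (diamond), with 1 lamb left out (circles) and with another scaling, filter, tool or covariate (triangles). IDH2 stays between -0.82 and -0.65 when 1 lamb is left out, and the values of IDH1 lie on both sides of 0.

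Of 11 other genes of the cycle listed, 8 were in the table and tested, 7 had a negative and 1 a positive log2 fold change, and the median was -0.25. By edgeR 0 passed in either direction, 2 had an unadjusted p under 0.05 as lower, against 8.45% of all tested genes, and DESeq2 called 1 as lower, *SUCLG1*, against 3.07%. *SUCLG1*, the alpha subunit of succinyl-CoA ligase, stood at 575.2, 423.4, 458.9 and 522.4 CPM in CON lambs 1 to 4 and at 367.2, 367.6, 327.4 and 379.5 CPM in SM20 lambs 1 to 4. It was the only one of these 8 with separate diets, at a log2 fold change of -0.46 ± 0.13 (SE; adjusted p = 0.123 by edgeR). Over all tested genes 5.67% had all SM20 lambs below all CON lambs. *SUCLG2*, the GTP-specific beta subunit of the same enzyme, had -0.015 ± 0.15.

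*FH*, fumarase, had a log2 fold change of -0.34 ± 0.13 (SE), and *SDHC*, a membrane anchor of succinate dehydrogenase, -0.32 ± 0.15. *CS*, citrate synthase, often taken as a marker of mitochondrial content, had 0.023 ± 0.12 (95% interval -0.24 to 0.29). It stood at 483.0, 419.2, 434.0 and 513.5 CPM in CON and at 518.6, 447.3, 458.5 and 454.6 CPM in SM20, where SM20 lamb 1 alone left the CON range. The partners of OGDH in its complex were *DLST* at -0.20 ± 0.12 and *DLD* at -0.0093 ± 0.13, the second of which also serves pyruvate dehydrogenase. The adjusted p of these genes by edgeR ran from 0.211 for *FH* to 0.983 for *DLD*.

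**Figure D4:**
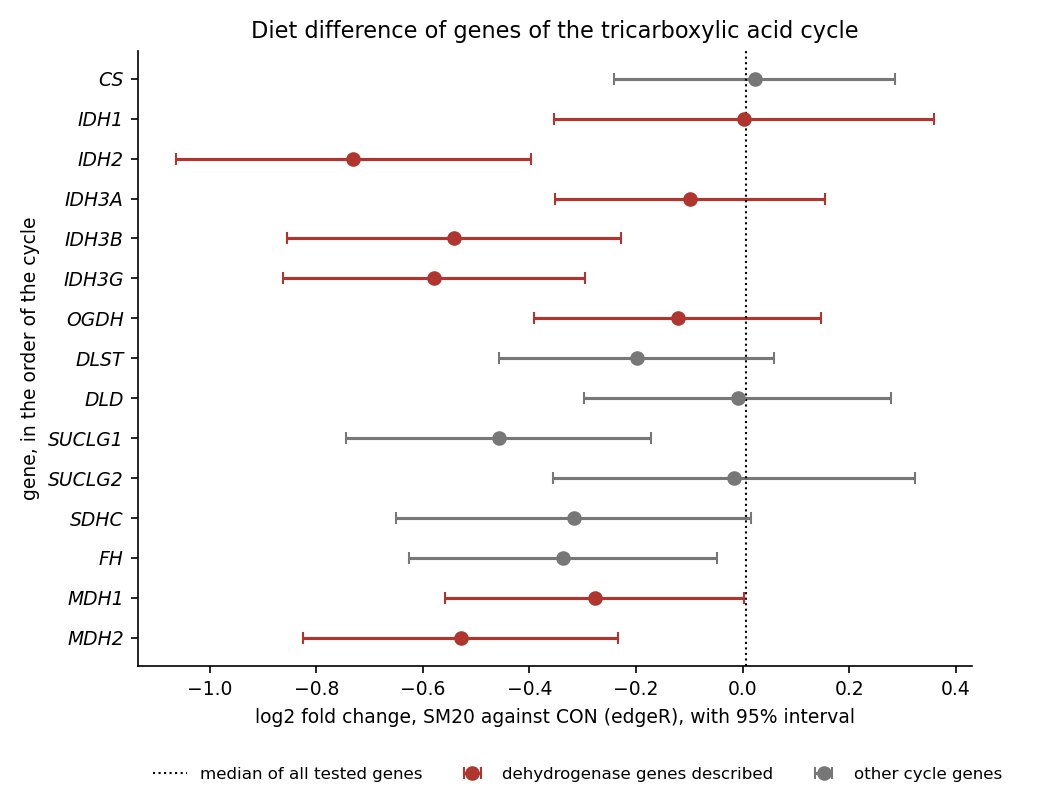
Log2 fold change of SM20 against CON with its 95% interval for the 8 dehydrogenase genes (red) and 7 other tested genes of the cycle (grey), in the order of the reactions, with the median of all tested genes dotted. The intervals of IDH2, IDH3B, IDH3G, MDH2, SUCLG1 and FH lie below 0, and those of CS, IDH1, DLD and SUCLG2 span it almost evenly.

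Genes that feed or drain the cycle had 0 members past the threshold by edgeR in any list. Of the malate-aspartate shuttle and cycle carriers 6 of 7 tested were negative, with a median of -0.31. *SLC25A11*, the 2-oxoglutarate carrier that works with MDH1 and MDH2, stood at 380.9, 320.6, 378.8 and 432.9 CPM in CON lambs 1 to 4 and at 254.3, 261.8, 297.7 and 270.2 CPM in SM20 lambs 1 to 4. The diets did not overlap, and the log2 fold change was -0.48 ± 0.13 (SE; adjusted p = 0.113 by edgeR and 0.0098 by DESeq2). The glutamate carrier *SLC25A22* had -0.49 ± 0.22 (adjusted p = 0.264 by edgeR). In that list 2 genes, *SLC25A11* and *SLC25A22*, had all SM20 lambs below all CON lambs, against 5.67% of all tested genes. The list had 2 genes at an unadjusted p under 0.05 as lower, against 8.45% of all tested genes.

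The pyruvate oxidation and carboxylation list had 6 of 13 tested genes negative and a median of 0.041, with 4 at an unadjusted p under 0.05 as lower and 1 as higher, against 8.45% and 9.84% of all tested genes. *PDHB*, a subunit of pyruvate dehydrogenase, had -0.34 ± 0.11 (SE; adjusted p = 0.158 by edgeR and 0.0380 by DESeq2), and *PDPR*, the regulatory subunit of the phosphatase that activates that enzyme, 0.41 ± 0.13 (adjusted p = 0.148 by edgeR). Sources of NADPH other than the isocitrate dehydrogenases had 5 of 11 negative and a median of 0.016. In that list the mitochondrial malic enzyme *ME3* had -0.97 ± 0.45, with 124 reads in CON lamb 1 and 22 to 47 reads in the other 7 lambs, and the mitochondrial folate enzyme *ALDH1L2* 0.88 ± 0.33 at a mean of 1.51 CPM in CON and 2.78 CPM in SM20. That list had 1 gene at an unadjusted p under 0.05, as higher, against 9.84% of all tested genes. DESeq2 called 0, but gave *ME3* and *ALDH1L2* no adjusted p.

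The 3 tested assembly factors of succinate dehydrogenase had a median of -0.050, among them *SDHAF2* at -0.21 ± 0.16 (SE) and *SDHAF1* at -0.050 ± 0.37. Of *ACO1*, *ACLY* and *GLUD1*, enzymes of citrate, isocitrate and 2-oxoglutarate outside the core cycle, 1 of 3 was negative and the median was 0.090. *ACO1*, the cytosolic aconitase that makes the isocitrate used by IDH1, had 0.15 ± 0.16 and *GLUD1*, glutamate dehydrogenase, -0.24 ± 0.14. Neither list had a gene at an unadjusted p under 0.05 or one that DESeq2 called.

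The likeness of patterns was measured as the root mean square difference in log2 CPM over the 8 libraries, after centring each gene on its own mean, among 9742 other genes with a mean of at least 1 CPM. Among the 8 dehydrogenase genes, *IDH3B* and *IDH3G* were closest at 0.065, followed by *IDH3G* and *MDH2* at 0.081 and *IDH3B* and *MDH2* at 0.086. *IDH1* and *IDH2* were farthest apart at 0.44, and *IDH3A* lay closer to *MDH1* (0.12) and *OGDH* (0.14) than to *IDH3B* (0.29) or *IDH3G* (0.29). The measure is a description, and it includes the difference between the diets.

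Over all genes, the nearest to *IDH3B* were *COX6B1* (0.041), *COX4I1* (0.047) and *GSE1* (0.057), and the nearest to *IDH3G* were *UQCRC1* (0.055), *PRDX5* (0.060) and *NDUFB10* (0.062). *MDH2* was nearest to *SERHL2* (0.056), *NDUFA2* (0.058) and *COX4I1* (0.062). The nearest genes to *IDH2* were farther off: *CFAP410* (0.10), *NRG4* (0.12) and *IMP4* (0.12). *IDH3A* was nearest to *MTCH2* (0.041), *PPP1R11* (0.049) and *BRD8* (0.052), and *MDH1* to *TMEM225B* (0.034) and *MRPL51* (0.065). *OGDH* was nearest to *SPNS1* (0.055), *HTT* (0.064) and *RAB11B* (0.067), and *IDH1* to *NUP188* (0.082), *SURF4* (0.099) and *WDR24* (0.10). For comparison, the median difference from all genes ran from 0.30 for *IDH3A* to 0.51 for *IDH2*. Some of these nearest genes had low mean levels, where counting error is larger. *CFAP410* had 4.50 CPM, *NRG4* 6.41, *WDR24* 8.05 and *TMEM225B* 8.78, against 834.0 for *COX4I1* and 880.6 for *GSE1*.

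By the RefSeq gene table for the assembly ARS-UI_Ramb_v3.0, used for names and neighbours only, 5 of the 8 genes overlap another gene. *MDH1* lies within *WDPCP*, with 13 to 34 reads per library, and the ends of *IDH2* and *MDH2* overlap *ZNF710* (3 to 21 reads) and *STYXL1* (35 to 114 reads). *IDH3A* overlaps *ACSBG1* and *IDH3B* overlaps *NOP56*, which were not analysed here. The counting is not stated to use strand, so reads in such overlaps may not have been told apart.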

How the data were processed

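The values deposited by the authors are raw read counts by gene symbol for 8 libraries. Per the labels' protocols, RNeasy Mini and TruSeq Stranded mRNA kits were used. Per the submitters' processing notes, Trim Galore, cutadapt, STAR, featureCounts and DESeq2 were used; no version, genome build or strand setting was given in the sources used here, so no coordinates are printed. A deposited sample sheet gave the labels' diet for all 8 libraries. Any pair of libraries differed by more than sampling noise (chi-square per degree of freedom at least 22.7), so none was treated as a repeat deposit; per the series' design text, 4 lambs of each diet were sequenced.

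SM20 was compared with CON by the quasi-likelihood F-test of edgeR 4.0.16 (R 4.3.3) with diet as the only term, TMM scaling and the default expression filter with a minimum count of 10, which left out 1468 genes holding 0.0735% of the counts. Two-sided p-values had Benjamini-Hochberg adjustment over the 9779 tested genes, at a threshold of 0.05. The standard error is the log2 fold change divided by the square root of F, and 95% intervals use the moderated degrees of freedom. Log2 CPM for ratios and patterns used a prior count of 2. Ratios were tested by exact permutation over lambs, with adjustment over the 8 ratios that could be formed; the ratio of SDHA to SDHB, also intended, was not analysed here, nor were promoter motifs. The fit was tested on simulated data. DESeq2 1.42.0 and the other settings are alternatives.

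The members and lists were chosen with earlier results of these data known. Named are all 8 genes, all tested genes of the cycle list, the 2 genes of smallest p in each further list where none passed, and the 3 genes nearest in pattern; 2 genes that this rule takes are not reported here. P-values by edgeR and DESeq2 weigh the diet difference against the spread between lambs of a diet. Those by permutation rank it among all assignments of lambs to diets.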

Additional observations from a re-analysis of the deposited data

Results flagged for a closer look

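In CON, 1 lamb stood far from the other 3 in 2 of 32 sets of values checked (8 genes and 8 ratios in each diet), by the gap to its nearest neighbour divided by the range of the 4 lambs; chance gives about 1 in 20. For the log2 ratio of *MDH1* to *MDH2* this share was 0.894, with CON lamb 1 at -1.18 and the others at -0.76 to -0.71. For *IDH3A* to *IDH3B* it was 0.839, with CON lamb 1 at -1.01 and the others at -0.55 to -0.46. The same lamb had the highest summed level of slow-fibre markers, at 26073 CPM against 11221 to 18711 CPM in the other CON lambs. The part of fibre type in these ratios was not tested.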

How the results depend on the processing

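The count of 5 genes past the threshold over the whole table became 1 with RLE and 1 with upper-quartile scaling, 0 without the filter on low counts, 0 with the slow-fibre covariate and 489 with DESeq2, and was 0 to 0 when any 1 lamb was left out, where 1476 to 1876 genes had an unadjusted p under 0.05. It was 5 with library size alone. The count of 0 dehydrogenase genes was 4 with DESeq2, all lower, and 0 to 0 over the 8 fits with 1 lamb left out. The cause was not tested.

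*IDH1*, at 0.0029, changed sign with RLE scaling (-0.0040), upper-quartile scaling (-0.033), DESeq2 (-0.0037) and the slow-fibre covariate (-0.052), and ran from -0.12 without CON lamb 2 to 0.077 without CON lamb 4. The other 7 genes had a negative sign in all 14 other settings, but 1 lamb moved the small values of *IDH3A*, from -0.10 to -0.057 without SM20 lamb 1 and -0.15 without SM20 lamb 4, and of *OGDH*, from -0.12 to -0.074 without SM20 lamb 4. With 1 lamb left out, adjusted p by edgeR ran from 0.0870 to 0.202 for *IDH2*, 0.0870 to 0.202 for *IDH3G*, 0.0909 to 0.219 for *MDH2* and 0.0884 to 0.220 for *IDH3B*. All 8 ratios kept their sign with a prior count of 0.5 and with 1 lamb left out. They missed the threshold there too, but at least 5 of the 8 must reach the smallest p together to pass it, so this says nothing of stability. The ranges of their differences over those 8 fits were 0.66 to 0.88 for *IDH1*/*IDH2*, 0.12 to 0.31 for *MDH1*/*MDH2*, 0.52 to 0.75 for *IDH3A*/*IDH2*, 0.14 to 0.31 for *IDH3B*/*IDH2*, 0.10 to 0.26 for *IDH3G*/*IDH2*, 0.30 to 0.51 for *IDH3A*/*IDH3B*, 0.37 to 0.55 for *IDH3A*/*IDH3G* and 0.010 to 0.074 for *IDH3B*/*IDH3G*. No paired analysis was possible because the lamb numbers follow accession order and pair nothing.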

Other observations

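Spread between lambs exceeded counting error for all 8 genes in both diets. For *IDH1*, the least counted of the 8, the coefficient of variation between CON lambs was 17.4% against a counting error of 7.16%, and between SM20 lambs 10.9% against 7.09%. For *MDH2*, the most counted, it was 15.2% in CON against 0.896%, and 4.40% in SM20 against 1.07%. *IDH3B* had 18.1% in CON and 6.03% in SM20, *IDH3G* 13.8% and 5.93%, while *IDH2* had 9.86% in CON and 18.2% in SM20. A difference in spread between the diets was not tested.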
